A study of Capra hircus with 9 samples.

Results

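Mammary glands of Xinong Saanen dairy goats that were neither milking nor pregnant (non-lactation) were compared with glands sampled at day 100 of lactation, by sequencing of poly(A)-selected RNA. The comparison took in 6 of the 9 samples of the series, 3 per stage, and no allele or treatment is named for either stage. The labels used here give no time since the last lactation for the non-lactation goats. The remaining 3 samples came from glands at dry-off, day 310, and are given only beside milk and immune transcripts. By its title, the series asks about gene networks of fatty acid metabolism in the milking gland. The labels do not say whether the samples of a stage came from separate goats, so the authors' p-values rest on a spread that may be technical. All expression levels below are the authors' stage means in RPKM (the number of reads per length of transcript and depth of library), with no value per sample and therefore no error. The log2 difference of a transcript is log2((non-lactation mean + 1)/(lactation mean + 1)), so a positive value means a higher mean in non-lactation glands, and it understates the change of low transcripts.

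The secretory epithelium of the mammary gland makes milk proteins, lactose and milk fat under prolactin, growth hormone and insulin, and draws fatty acids from blood lipoproteins beside those it synthesises. Milk fat leaves the cell as droplets wrapped in a membrane rich in butyrophilin, xanthine dehydrogenase and mucins. When milking stops, the alveoli regress, proteases remodel the matrix, and stroma and immune cells fill more of the tissue. Transcripts of LALBA, GLYCAM1, XDH and MUC1, which mark the milk-forming epithelium, were measured in both stages. Neither casein genes nor FASN could be matched by description, and they were not analysed here. Bulk RNA cannot tell fewer cells of a type from less RNA per cell.

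Most transcripts had higher mean RPKM in non-lactation glands. Among 9131 transcripts of 6477 assembled components, the mean was higher in non-lactation for 8940 (97.9%) and lower for 185 (2.03%). The median log2 difference was 0.90, with quartiles of 0.57 and 1.25 and a range of −2.0 to 4.39. In the authors' deposited table, 1 of 9125 transcripts with a p-value passed a false discovery rate (FDR) below 0.05, which is 0.011%. The next smallest FDR in the authors' deposited table was 0.0846, so no other transcript named below passed. At an unadjusted p below 0.05, the authors' deposited table held 3786 transcripts with a higher mean (41.5%) and 25 with a lower mean (0.274%) in non-lactation. Counts of list members at that p are read against the 41.5%, with no test of a list. On the scale of RPKM plus 1, which understates the change of low transcripts, the mean was at least 2-fold higher for 3827 transcripts (41.9%). It was at least 2-fold lower on that scale for 33 (0.361%). Read against the table median, the 3811 transcripts (41.8%) with p below 0.05 split into 2406 above and 1405 below it. The table was already a selection, since 93.8% of its transcripts had p below 0.05 in at least 1 of the 3 comparisons in the authors' deposited table.

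**Figure D1:**
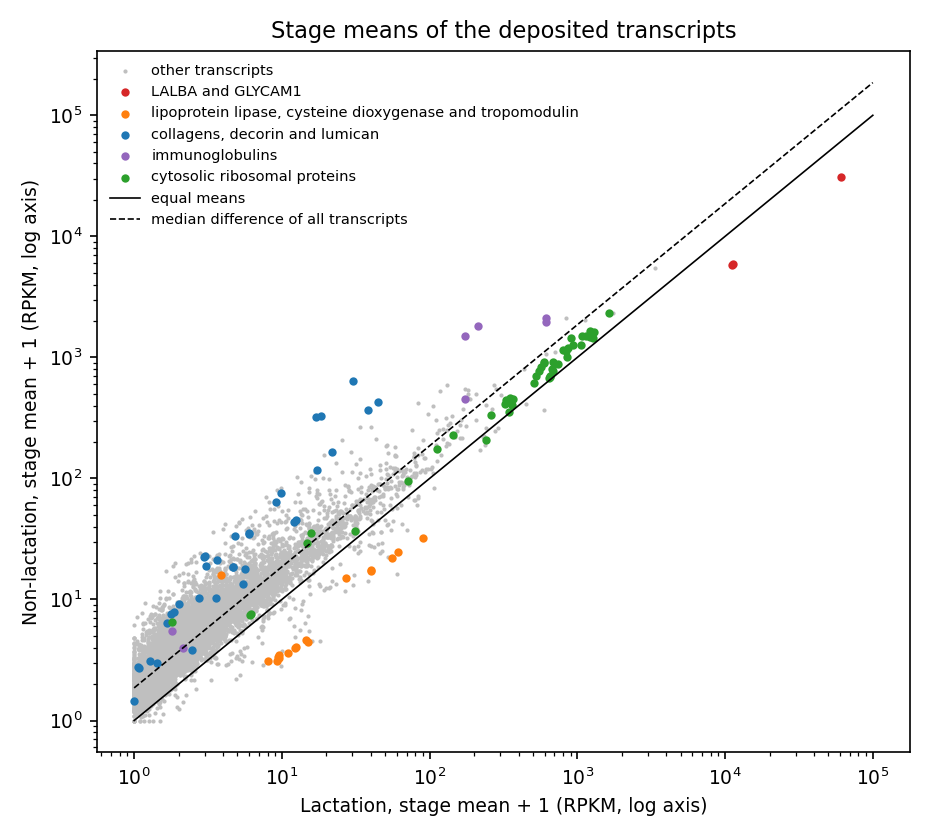
Stage mean of each of 9131 transcripts in non-lactation (vertical) and lactation (horizontal) glands, in RPKM plus 1 on log axes. The cloud lies along the dashed line, 1.86 times above equality, while LALBA, GLYCAM1, lipoprotein lipase and cysteine dioxygenase lie below the solid line and all 30 collagen transcripts above it.

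A few milk transcripts held much of the summed RPKM, and RPKM is relative to the library. The transcript of LALBA and both transcripts of GLYCAM1 made up 21.5% of the summed mean RPKM of the table in non-lactation and 49.9% in lactation glands. In dry-off glands they made up 0.523%. Without these 3 transcripts the table summed to 155950 RPKM in non-lactation and 83622.5 RPKM in lactation, a ratio of 1.86 (log2 0.90). The table median was also 0.90 with 1 added to the means, but it was 1.31 with 0.1 added, and it was 0.28 after rescaling by the milk-free sums. A log2 difference below 0.90 lies below the table median even where it is positive. Counts above or below that median use 1 added to the means, and centring was not repeated with 0.1 added. The median was 1.00 with 1 transcript per component and 0.97 with at least 1 RPKM in the higher stage. Genes below are given by 1 transcript each, so a list median between 0.90 and 1.00 does not exceed the median of 1 transcript per component. How much of the shift comes from the milk share was not tested. The 44 cytosolic ribosomal protein transcripts, which are abundant in every cell, held 17% of the summed RPKM in non-lactation and 15.7% in lactation, with a median log2 difference of 0.39.

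By the authors' FDR, the 1 transcript that rose was described as ADAM33, a membrane-anchored metalloproteinase. Benjamini-Hochberg adjustment of the same p-values over the deposited table alone would pass 60 transcripts, 59 of them higher and 1 lower in non-lactation. The ADAM33 transcript averaged 8.01 RPKM in non-lactation and 1.33 RPKM in lactation glands, a log2 difference of 1.95 (p = 2.29e-06, FDR 0.0457 in the authors' deposited table). All 11 transcripts with this description had higher means in non-lactation, 7 of them with p below 0.05 in the authors' deposited table, and their log2 differences ran from 0.31 to 1.95. They belonged to 8 components, so the description need not stand for 1 gene. The next smallest p-values in the authors' deposited table belonged to neurofibromin 1, a Ras regulator (p = 1.35e-05), to G protein gamma 10 (p = 1.52e-05) and to JunB (p = 1.55e-05). JunB, an AP-1 transcription factor, had 36.1 RPKM in non-lactation and 5.51 RPKM in lactation. Desmoglein 2 and tight junction protein 2, of epithelial cell contacts, also stood among the 15 smallest p-values, with log2 differences of 1.01 and 1.16.

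Both measured milk protein genes had lower means in non-lactation glands, yet remained the most abundant transcripts there. LALBA, the alpha-lactalbumin subunit of lactose synthase, had 30948 RPKM in non-lactation and 60951 RPKM in lactation, 0.508 times the lactation level (p = 0.0565 in the authors' deposited table). GLYCAM1, a milk mucin, had 5857 RPKM in non-lactation and 11225 RPKM in lactation (p = 0.0342 in the authors' deposited table). A second GLYCAM1 transcript of another component had nearly the same means, 5809 RPKM in non-lactation and 11145 RPKM in lactation, and reads of the 2 may not be told apart. In dry-off glands the means were 960.4 RPKM for LALBA and 197 RPKM for the first GLYCAM1 transcript. Of 11 listed milk proteins, 2 were matched by description and neither passed the FDR.

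Milk fat globule and secretion genes differed little or had lower means in non-lactation. Of 11 listed genes, 5 were matched to 1 symbol, 2 with higher and 3 with lower means, and all 5 lay below the table median, with a list median of −0.33. RAB18, a small GTPase of lipid droplets, had 27.9 RPKM in non-lactation and 44.0 RPKM in lactation (p = 0.0301 in the authors' deposited table). FABP3, a fatty acid binding protein abundant in milking glands, had 367 RPKM in non-lactation and 592 RPKM in lactation (p = 0.154 in the authors' deposited table). MUC1, a mucin of the globule membrane, had 40.7 RPKM in non-lactation and 51.5 RPKM in lactation (p = 0.434 in the authors' deposited table). These 3 genes had negative log2 differences. Centring and rescaling only lower the log2 differences, so they could not have turned these 3 positive. XDH, the xanthine dehydrogenase that binds butyrophilin, had 110 RPKM in non-lactation and 77.7 RPKM in lactation (p = 0.253 in the authors' deposited table), a positive log2 difference (0.50) that turns negative when centred on the table median. The butyrophilin description, a family, had 260 RPKM in non-lactation and 288 RPKM in lactation (p = 0.677 in the authors' deposited table). TLR2, a receptor of innate immunity found in this membrane, had 9.32 RPKM in non-lactation and 7.15 RPKM in lactation.

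Fatty acid uptake genes split by member. LPL, the lipoprotein lipase that frees fatty acids from blood lipoproteins, had 16.5 RPKM in non-lactation and 39.1 RPKM in lactation, a log2 difference of −1.20 (p = 0.0114 in the authors' deposited table). All 3 LPL transcripts, of 1 component, had lower means in non-lactation with p below 0.05 in the authors' deposited table. CD36, which carries fatty acids across the membrane, had 68.4 RPKM in non-lactation and 82.3 RPKM in lactation for its main transcript (p = 0.428 in the authors' deposited table), but 3 of its 5 transcripts had higher means in non-lactation and the sum over them was higher there too. The fatty acid transport proteins had low levels that were higher in non-lactation. SLC27A1 had 11.3 RPKM in non-lactation and 5.92 RPKM in lactation. SLC27A3 had 3.80 RPKM in non-lactation and 1.30 RPKM in lactation, and SLC27A4 had 2.49 RPKM in non-lactation and 1.06 RPKM in lactation. Only SLC27A3 of the 6 measured genes, with a log2 difference of 1.06, lay above the table median, and the list median was 0.25. Among families, long-chain acyl-CoA synthetase, which activates fatty acids, had 25.6 RPKM in non-lactation and 10.03 RPKM in lactation (p = 0.0165 in the authors' deposited table).

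**Figure D2:**
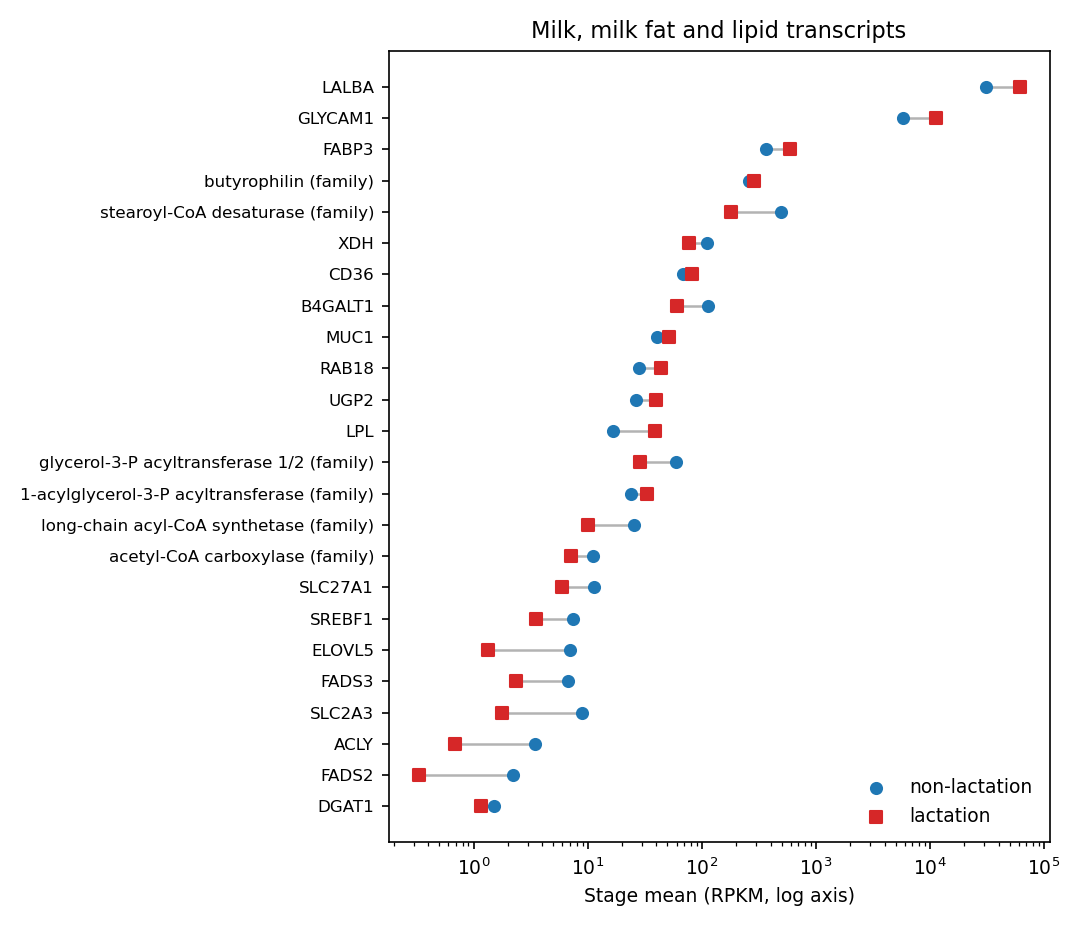
Stage means (RPKM, log axis) of milk, milk fat and lipid genes in non-lactation (blue circles) and lactation (red squares) glands. LALBA, GLYCAM1, FABP3, RAB18, UGP2 and LPL have the blue circle to the left, while FADS2, ACLY, ELOVL5 and SLC2A3 have it to the right by the widest gaps.

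All 8 measured genes of fatty acid synthesis, elongation and desaturation had higher means in non-lactation, against 97.9% of all transcripts. Among them 3 had p below 0.05 in the authors' deposited table, a smaller share than the 41.5% of all transcripts. Of the 8 genes, 5 lay above the table median, with a list median of 1.13. The other 3, ELOVL6, ELOVL7 and MCAT, turn negative when centred on the table median with 1 added to the means. Adding 1 understates the change of low transcripts, and their ratios of means were 3.31, 3.92 and 1.55. Most of the 8 genes were low in both stages. FADS2, a desaturase of long polyunsaturated fatty acids, had 2.19 RPKM in non-lactation and 0.330 RPKM in lactation (p = 0.00307 in the authors' deposited table). ACLY, the ATP citrate lyase that supplies cytosolic acetyl-CoA, had 3.45 RPKM in non-lactation and 0.692 RPKM in lactation (p = 0.0116 in the authors' deposited table). OXSM, of mitochondrial fatty acid synthesis, was the third gene with p below 0.05 in the authors' deposited table, at 4.80 RPKM in non-lactation and 1.77 RPKM in lactation. The other measured genes were elongases, a desaturase and a second mitochondrial enzyme. ELOVL5 had 6.93 RPKM in non-lactation and 1.34 RPKM in lactation, the largest log2 difference of the list (1.76), with p = 0.0899 in the authors' deposited table. By the ratio of means FADS2 (6.66) exceeded ELOVL5 (5.19). FADS3 had 6.65 RPKM in non-lactation and 2.35 RPKM in lactation. ELOVL6, ELOVL7 and MCAT had 1.51, 1.17 and 3.67 RPKM in non-lactation, against 0.457, 0.298 and 2.37 RPKM in lactation, and all 3 had p above 0.05 in the authors' deposited table. Among family descriptions, stearoyl-CoA desaturase, which makes monounsaturated fatty acids, had 498 RPKM in non-lactation and 179 RPKM in lactation, with p = 0.215 in the authors' deposited table. Isocitrate dehydrogenase, a source of NADPH, had 75.98 RPKM in non-lactation and 33.4 RPKM in lactation (p = 0.00679 in the authors' deposited table). The description acetyl-CoA carboxylase, the enzyme of malonyl-CoA supply, had 11.1 RPKM in non-lactation and 7.08 RPKM in lactation (p = 0.173 in the authors' deposited table), and its log2 difference of 0.58 turns negative when centred on the table median.

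Triacylglycerol synthesis was covered mostly by family descriptions. The description phosphatidate phosphatase, an activity of the lipins and of related lipid phosphatases, had 54.2 RPKM in non-lactation and 15.3 RPKM in lactation (p = 0.00701 in the authors' deposited table), and all 6 transcripts so described had higher means in non-lactation. Glycerol-3-phosphate acyltransferase 1/2, which opens the pathway, had 59.5 RPKM in non-lactation and 28.7 RPKM in lactation (p = 0.109 in the authors' deposited table). The main transcript described as 1-acylglycerol-3-phosphate acyltransferase, the second step, differed in direction with 24.1 RPKM in non-lactation and 32.97 RPKM in lactation (p = 0.268 in the authors' deposited table), although 5 of its 7 transcripts had higher means in non-lactation. DGAT1, the last step and the one gene of 16 matched to 1 symbol, had 1.52 RPKM in non-lactation and 1.15 RPKM in lactation (p = 0.126 in the authors' deposited table).

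Lactose synthesis and glucose uptake genes also split. Of 7 measured genes, 5 had higher and 2 lower means in non-lactation, and 3 lay above the table median, with a list median of 0.88. B4GALT1, the galactosyltransferase that pairs with LALBA, had 113 RPKM in non-lactation and 61.1 RPKM in lactation (p = 0.0694 in the authors' deposited table), a log2 difference of 0.88 that becomes −0.02 when centred on the table median. UGP2, which makes UDP-glucose, had 26.7 RPKM in non-lactation and 39.4 RPKM in lactation (p = 0.127 in the authors' deposited table). Both UGP2 transcripts had the lower mean in non-lactation. The 3 glucose transporters with p below 0.05 in the authors' deposited table were SLC2A3, at 8.89 RPKM in non-lactation and 1.76 RPKM in lactation, SLC2A4 at 2.43 RPKM in non-lactation and 0.623 RPKM in lactation, and SLC2A8 at 6.55 RPKM in non-lactation and 3.23 RPKM in lactation. The hexokinase family had 20.7 RPKM in non-lactation and 5.56 RPKM in lactation (p = 0.0118 in the authors' deposited table).

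Cholesterol synthesis, lipid regulators and fatty acid oxidation had medians close to the table median. Of 5 cholesterol genes, 4 had higher means in non-lactation and 3 lay above the table median (list median 0.97). NSDHL, a sterol dehydrogenase, had 14.2 RPKM in non-lactation and 5.94 RPKM in lactation (p = 0.00728 in the authors' deposited table). All 8 lipid regulators had higher means in non-lactation, against 97.9% of all transcripts, though SREBF2, PPARD and NR1H2 turn negative when centred on the table median. SREBF2, the regulator of cholesterol synthesis, had 32.7 RPKM in non-lactation and 18.9 RPKM in lactation (p = 0.0179 in the authors' deposited table). PPARD, a fatty acid receptor, had 11.5 RPKM in non-lactation and 5.87 RPKM in lactation (p = 0.0334 in the authors' deposited table). PPARG, a lipogenic receptor, had 8.58 RPKM in non-lactation and 3.27 RPKM in lactation (p = 0.0524 in the authors' deposited table). All 14 oxidation and lipolysis genes had higher means in non-lactation, against 97.9% of all transcripts. Of the 14 genes, 8 lay above the table median, and the list median was 1.02. CRAT, a carnitine acetyltransferase, had 11.1 RPKM in non-lactation and 3.93 RPKM in lactation (p = 0.0129 in the authors' deposited table). EHHADH, a peroxisomal oxidation enzyme, had 11.3 RPKM in non-lactation and 2.97 RPKM in lactation (p = 0.0234 in the authors' deposited table). ACADVL and CPT2, of mitochondrial oxidation, were the other 2 with p below 0.05 in the authors' deposited table. ACAA1, a peroxisomal thiolase, had the smallest difference, with 15.7 RPKM in non-lactation and 13.6 RPKM in lactation.

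Of the receptors and signal carriers of hormones and growth factors, all 22 measured genes had higher means in non-lactation, against 97.9% of all transcripts, 12 of them with p below 0.05 in the authors' deposited table, and 19 lay above the table median (list median 1.29). GHR, the growth hormone receptor, had 8.62 RPKM in non-lactation and 1.97 RPKM in lactation (p = 0.000541 in the authors' deposited table). IGF1, the growth factor downstream of growth hormone, had 1.88 RPKM in non-lactation and 0.287 RPKM in lactation (p = 0.00209 in the authors' deposited table). INSR, the insulin receptor, had 10.9 RPKM in non-lactation and 2.23 RPKM in lactation (p = 0.00217 in the authors' deposited table). EGFR, the epidermal growth factor receptor, followed with 10.1 RPKM in non-lactation and 2.53 RPKM in lactation (p = 0.00467 in the authors' deposited table). These 4 genes all lay above the table median. The 3 below it, which turn negative when centred on it, were IGF1R, SOCS2 and EIF4EBP1. EIF4EBP1, a translation repressor, had 109 RPKM in non-lactation and 104 RPKM in lactation, and SOCS2, an inhibitor of growth hormone signalling, had 12.98 RPKM in non-lactation and 10.4 RPKM in lactation.

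Of the genes of involution, apoptosis and matrix remodelling, all 29 measured had higher means in non-lactation, against 97.9% of all transcripts. Among them 11 had p below 0.05 in the authors' deposited table, a smaller share than the 41.5% of all transcripts. Of the 29 genes, 25 lay above the table median (list median 1.49). ADAM33 is counted among the 29. List members were chosen with earlier results of these data known, so its place on the list is not separate evidence. PLAT, the tissue plasminogen activator, had 22.3 RPKM in non-lactation and 2.65 RPKM in lactation (p = 0.00685 in the authors' deposited table). LIFR, the receptor of leukaemia inhibitory factor, had 3.57 RPKM in non-lactation and 0.624 RPKM in lactation (p = 0.00644 in the authors' deposited table). PLAUR, the urokinase receptor, had 6.18 RPKM in non-lactation and 2.01 RPKM in lactation (p = 0.00919 in the authors' deposited table). The matrix metalloproteinases had p-values above 0.05 in the authors' deposited table. MMP14, a membrane-type metalloproteinase, had 63.5 RPKM in non-lactation and 7.14 RPKM in lactation (log2 2.98; p = 0.150 in the authors' deposited table). MMP2, a gelatinase that MMP14 activates, had 211 RPKM in non-lactation and 42.0 RPKM in lactation (p = 0.158 in the authors' deposited table). MMP9, another gelatinase, was listed at 0 in lactation and at 3.37 RPKM in non-lactation. Both gelatinases and MMP14 were named after their values were seen.

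**Figure D3:**
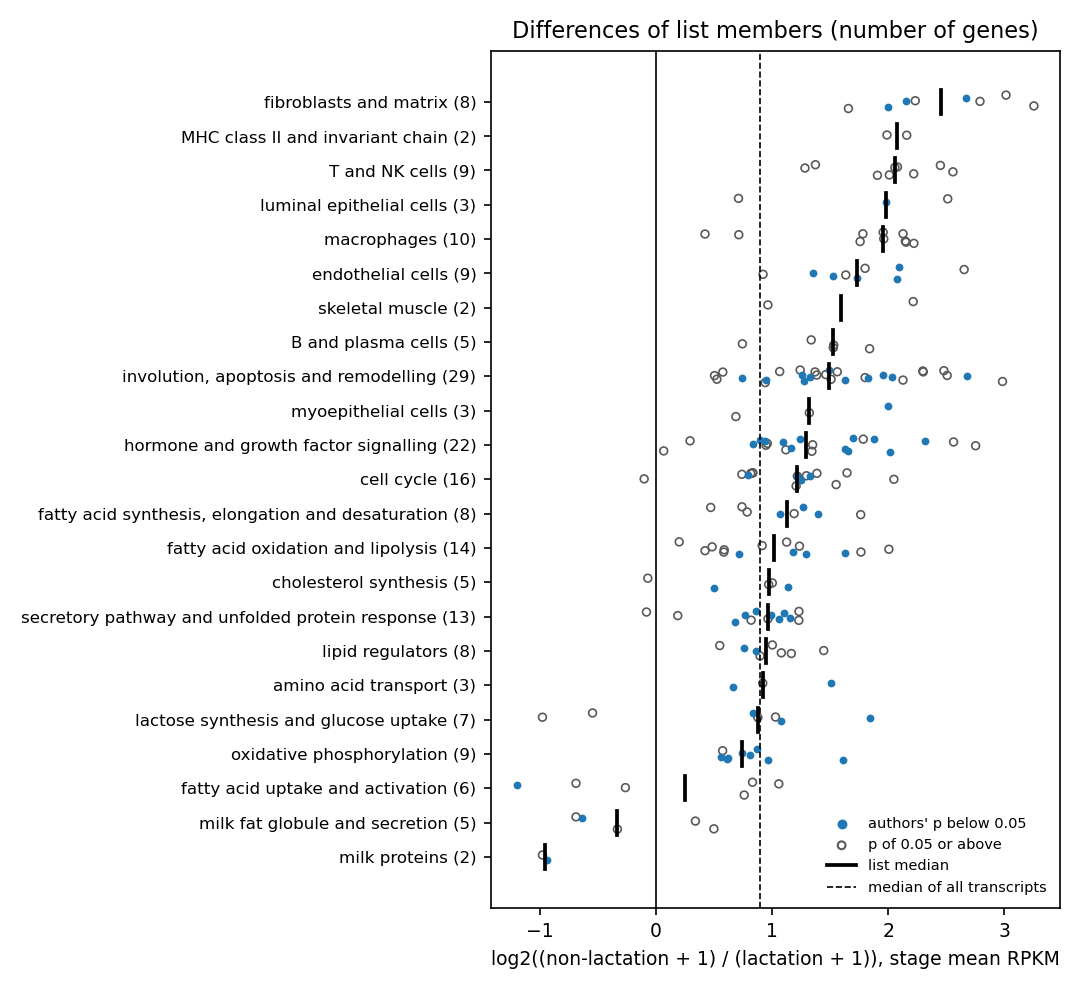
Log2 difference of each measured gene (circles, filled where the authors' p was below 0.05) in 23 lists, ordered by list median (bars), with 0 (solid line) and the table median of 0.90 (dashed line). Fibroblast and immune list medians lie above the dashed line, with few or no filled circles in the immune lists, and milk proteins lie below 0.

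The cell cycle list had a median above the table median, the secretory pathway list one near it and the respiration list one below it. Of 16 cell cycle genes, 15 had higher means in non-lactation and 10 lay above the table median (list median 1.22). CDK4, a G1 kinase, had 54.2 RPKM in non-lactation and 22.2 RPKM in lactation (p = 0.00719 in the authors' deposited table), while CCND3, a partner cyclin, had 6.76 RPKM in non-lactation and 7.33 RPKM in lactation (p = 0.693 in the authors' deposited table). Of 13 secretory and unfolded protein response genes, 12 had higher means, 7 with p below 0.05 in the authors' deposited table, and the list median was 0.96. P4HB, a protein disulfide isomerase, had 243 RPKM in non-lactation and 151 RPKM in lactation (p = 0.00435 in the authors' deposited table), a log2 difference of 0.68 that turns negative against the table median. XBP1, the transcription factor of the unfolded protein response, had 55.3 RPKM in non-lactation and 48.4 RPKM in lactation (p = 0.388 in the authors' deposited table). All 9 oxidative phosphorylation genes had higher means, against 97.9% of all transcripts. Among them 8 had p below 0.05 in the authors' deposited table, against 41.5% of all transcripts. In the whole deposited pathway of that name the share was 29 of 72 components (40.3%), against 41.5% of all components. The median of the 9 genes, 0.74, lay below the table median, as did 7 of the 9. COX5A, of cytochrome oxidase, had 85.5 RPKM in non-lactation and 57.6 RPKM in lactation (p = 0.000394 in the authors' deposited table). NDUFS1, of complex I, lay above the median with 16.5 RPKM in non-lactation and 4.74 RPKM in lactation (p = 0.000849 in the authors' deposited table). Of the 3 amino acid transporters, SLC3A2, the heavy chain of several transporters, had 104 RPKM in non-lactation and 35.9 RPKM in lactation (p = 0.00171 in the authors' deposited table).

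Fibroblast and matrix genes had the highest median log2 difference of the cell type marker lists. All 8 fibroblast and matrix genes had higher means in non-lactation, against 97.9% of all transcripts, and lay above the table median, with a list median of 2.45. Among them 3 had p below 0.05 in the authors' deposited table, a smaller share than the 41.5% of all transcripts. Their summed level was 1136 RPKM in non-lactation and 238 RPKM in lactation. DCN, the collagen-binding proteoglycan decorin, had 424 RPKM in non-lactation and 43.5 RPKM in lactation (p = 0.0625 in the authors' deposited table). THY1, a fibroblast surface protein, had 58.6 RPKM in non-lactation and 8.36 RPKM in lactation (p = 0.0375 in the authors' deposited table). The largest log2 difference of the whole table, with 1 added to the means, was 4.39 for a fibrillar collagen description. It had 637 RPKM in non-lactation and 29.3 RPKM in lactation (p = 0.0725 in the authors' deposited table). All 30 collagen transcripts had higher means in non-lactation, against 97.9% of all transcripts, with a median log2 difference of 2.04. Of the 30, 15 had p below 0.05 in the authors' deposited table, against 41.5% of all transcripts. Together they held 1.00% of the summed RPKM in non-lactation and 0.106% in lactation. All 9 endothelial genes were also higher and above the table median (list median 1.73). Among them 5 had p below 0.05 in the authors' deposited table, against 41.5% of all transcripts. The endothelial median lay below those of luminal (1.98), macrophage (1.96) and T and NK cell genes (2.06). PECAM1, of endothelial junctions, had 30.9 RPKM in non-lactation and 8.62 RPKM in lactation (p = 0.00550 in the authors' deposited table). ENG, an endothelial TGF-beta co-receptor, had 143 RPKM in non-lactation and 32.9 RPKM in lactation (p = 0.0111 in the authors' deposited table).

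Epithelial markers lay on both sides of the table median, with list medians of 1.98 for 3 luminal genes and 1.32 for 3 myoepithelial genes. In each of these lists, 2 genes lay above the table median and 1 below it. CDH1, the epithelial cadherin, had 33.4 RPKM in non-lactation and 7.73 RPKM in lactation (log2 1.98; p = 0.00332 in the authors' deposited table). FOXA1, a luminal transcription factor, had 8.06 RPKM in non-lactation and 0.587 RPKM in lactation (p = 0.0885 in the authors' deposited table). EPCAM, an epithelial adhesion molecule, had 66.1 RPKM in non-lactation and 39.97 RPKM in lactation, a log2 difference of 0.71 that lies below the table median. The main transcript described as E74-like factor 3/5, a family that includes the alveolar regulator ELF5, had 70.4 RPKM in non-lactation and 81.9 RPKM in lactation (p = 0.296 in the authors' deposited table). Keratin descriptions, each a family, had 252 RPKM in non-lactation and 74.7 RPKM in lactation for type II and 190 RPKM in non-lactation and 133 RPKM in lactation for type I. The families that include GATA3 and CLDN4 had log2 differences of 1.27 and 1.12 (p = 0.00842 and 0.00944 in the authors' deposited table). The 3 luminal genes summed to 108 RPKM in non-lactation and 48.3 RPKM in lactation. Among 3 myoepithelial genes, TP63, a basal cell factor, had 4.92 RPKM in non-lactation and 0.485 RPKM in lactation (p = 0.0263 in the authors' deposited table). ACTA2, a contractile actin, had 489 RPKM in non-lactation and 303 RPKM in lactation (p = 0.0531 in the authors' deposited table), a log2 difference of 0.69. OXTR had a log2 difference of 1.32 (p = 0.0542 in the authors' deposited table). The families that include MYH11 and MYLK had log2 differences of 2.12 and 1.99 (p = 0.0379 and 0.000598 in the authors' deposited table).

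Immune markers had p-values of 0.0791 to 0.435 in the authors' deposited table. All 10 macrophage genes, 9 T or NK cell genes and 5 B or plasma cell genes had higher means in non-lactation, and none had p below 0.05 there, against 41.5% of all transcripts. CSF1R, the macrophage growth factor receptor, had 32.6 RPKM in non-lactation and 6.54 RPKM in lactation (p = 0.186 in the authors' deposited table). CD3E, of the T cell receptor complex, had 42.5 RPKM in non-lactation and 6.97 RPKM in lactation (p = 0.343 in the authors' deposited table). CD74, a chaperone of MHC class II molecules, had 589 RPKM in non-lactation and 131 RPKM in lactation (p = 0.235 in the authors' deposited table). The list medians were 1.96 for macrophages, 2.06 for T and NK cells and 1.53 for B and plasma cells, all above the table median. Below it lay CD14 (0.42) and TLR4 (0.71), receptors for bacterial lipopolysaccharide, of the 10 macrophage genes, and CD22 (0.74), a B cell lectin, of the 5 B and plasma cell genes, and these 3 turn negative when centred on it. The summed markers were 286 RPKM in non-lactation and 76.1 RPKM in lactation for macrophages, and 149 RPKM in non-lactation and 25.6 RPKM in lactation for T and NK cells. In dry-off glands the sums were higher than in both, at 703 RPKM for macrophages and 422 RPKM for T and NK cells. An immunoglobulin heavy chain transcript had 1820 RPKM in non-lactation and 211 RPKM in lactation (p = 0.280 in the authors' deposited table). The 7 immunoglobulin transcripts held 3.95% of the summed RPKM in non-lactation and 1.07% in lactation, and their p-values ran from 0.230 to 0.396 in the authors' deposited table. Their part in the other differences was not tested. No listed neutrophil gene was matched by description among the 9131 transcripts, so neutrophils were not analysed. LIPE, the 1 adipocyte marker matched, had 5.44 RPKM in non-lactation and 1.73 RPKM in lactation. Desmin, a muscle filament found also in smooth muscle, had 42.2 RPKM in non-lactation and 8.30 RPKM in lactation, and TNNT3, of fast skeletal muscle, had 1.81 RPKM in non-lactation and 0.439 RPKM in lactation.

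Among 840 transcripts with p below 0.05 in the authors' deposited table and at least 10 RPKM in the higher stage, 825 had higher means in non-lactation. CYR61, a matrix-associated signalling protein, had 19.1 RPKM in non-lactation and 0.888 RPKM in lactation (log2 3.41, the largest of them; p = 0.0346 in the authors' deposited table). A thrombospondin, an adhesive glycoprotein, had 34.9 RPKM in non-lactation and 2.42 RPKM in lactation (p = 0.0318 in the authors' deposited table). EGR1, an immediate early transcription factor, had 16.2 RPKM in non-lactation and 0.641 RPKM in lactation (p = 0.00988 in the authors' deposited table). These 3 were each over 10 times as high in non-lactation as in lactation. Biglycan, a small proteoglycan whose name is misspelt in the table, had 208 RPKM in non-lactation and 24.7 RPKM in lactation (p = 0.00824 in the authors' deposited table). Perlecan, of basement membranes, had 22.9 RPKM in non-lactation and 2.08 RPKM in lactation (p = 0.00123 in the authors' deposited table). A transcript of collagen VI had 164 RPKM in non-lactation and 20.8 RPKM in lactation (p = 0.0309 in the authors' deposited table). Tenascin, lumican, AP-1, a SOX group C factor and a KRAB and SCAN zinc finger protein completed the 15 largest.

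Only 15 of the 840 transcripts had lower means in non-lactation, from 6 descriptions in 9 components. GLYCAM1, LPL and RAB18 were among them. Cysteine dioxygenase, which starts cysteine breakdown towards taurine, had 31.0 RPKM in non-lactation and 89.9 RPKM in lactation for its main transcript (log2 −1.50; p = 0.0152 in the authors' deposited table), and its other 2 transcripts were lower as well. Tropomodulin, which caps actin filaments, had 3.46 RPKM in non-lactation and 14.1 RPKM in lactation in the lowest of its transcripts (log2 −1.75; p = 0.0424 in the authors' deposited table). In 10 of 11 tropomodulin transcripts the mean was lower in non-lactation, while a transcript of another component had 15.04 RPKM in non-lactation and 2.89 RPKM in lactation (p = 0.00528 in the authors' deposited table). Below 10 RPKM, a hyaluronan synthase had 1.82 RPKM in non-lactation and 8.84 RPKM in lactation (p = 0.000561 in the authors' deposited table), and the adenosine receptor A2b had 3.36 RPKM in non-lactation and 6.39 RPKM in lactation (p = 0.000272 in the authors' deposited table). Both were named after their values were seen.

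The transcripts with the largest differences did not have the largest share of small p-values. Of 31 transcripts at least 8-fold higher in non-lactation on the RPKM plus 1 scale, 6 (19.4%) had p below 0.05 in the authors' deposited table, against 144 of 359 (40.1%) that were 4-fold to under 8-fold, 1859 of 3437 (54.1%) that were 2-fold to under 4-fold and 1777 of 5113 (34.8%) that were under 2-fold higher. The decorin, fibrillar collagen, complement C4, C1r and C1s transcripts and those of c-fos were in the first class without reaching that p. Complement component C1s, a protease of the classical pathway, had 79.2 RPKM in non-lactation with a log2 difference of 3.10 (p = 0.0628 in the authors' deposited table). Of the 33 transcripts at least 2-fold lower in non-lactation, 16 (48.5%) had p below 0.05 in the authors' deposited table, against 9 of 152 (5.92%) that were under 2-fold lower.

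**Figure D4:**
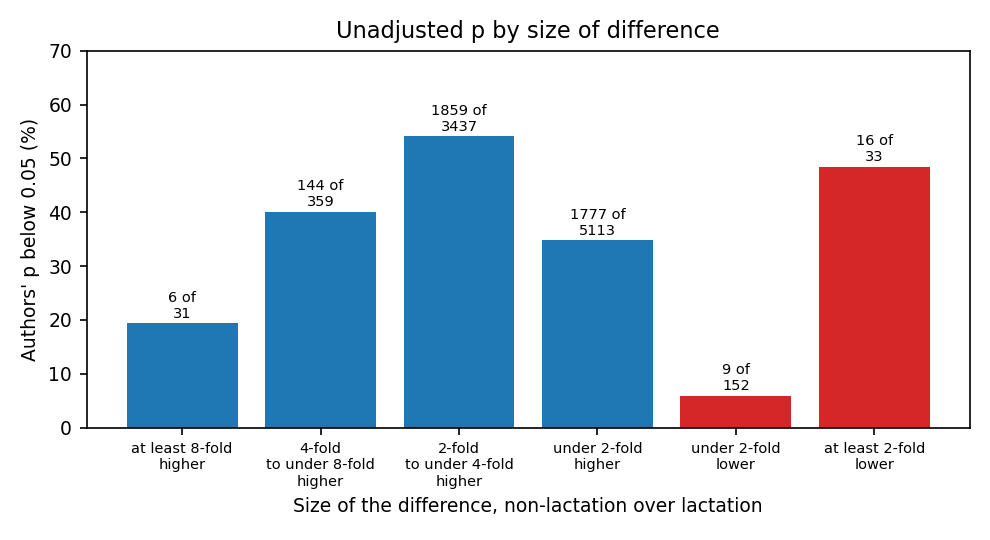
Share of transcripts with p below 0.05 in the authors' deposited table (bars, percent), by size of the difference on the RPKM plus 1 scale, higher (blue) or lower (red) in non-lactation than in lactation glands. The share is 19.4% at 8-fold or more, 54.1% at 2-fold to under 4-fold and 5.92% among small lower differences.

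By the deposited pathway members, all 186 KEGG pathways with at least 10 components had a median log2 difference above 0, from 0.39 to 1.82, around a median of 1.00 over 6477 components, 41.5% of which were higher with p below 0.05 in the authors' deposited table. ECM-receptor interaction, the binding of matrix proteins by integrins, had a median of 1.71, with 40 of 76 components (52.6%) higher at p below 0.05 in the authors' deposited table. Allograft rejection, whose members are MHC and lymphocyte genes, had a median of 1.82, with 0 of 19. Asthma and autoimmune thyroid disease, which draw on similar immune members, had the same median, also with 0 of 13 and 0 of 19. At the other end, the ribosome had a median of 0.39 (2 of 40) and oxidative phosphorylation one of 0.64 (29 of 72). Fatty acid metabolism, with a median of 1.10 and 13 of 33 components, and PPAR signalling, with 0.98 and 16 of 41, stood near the level of all components.

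**Figure D5:**
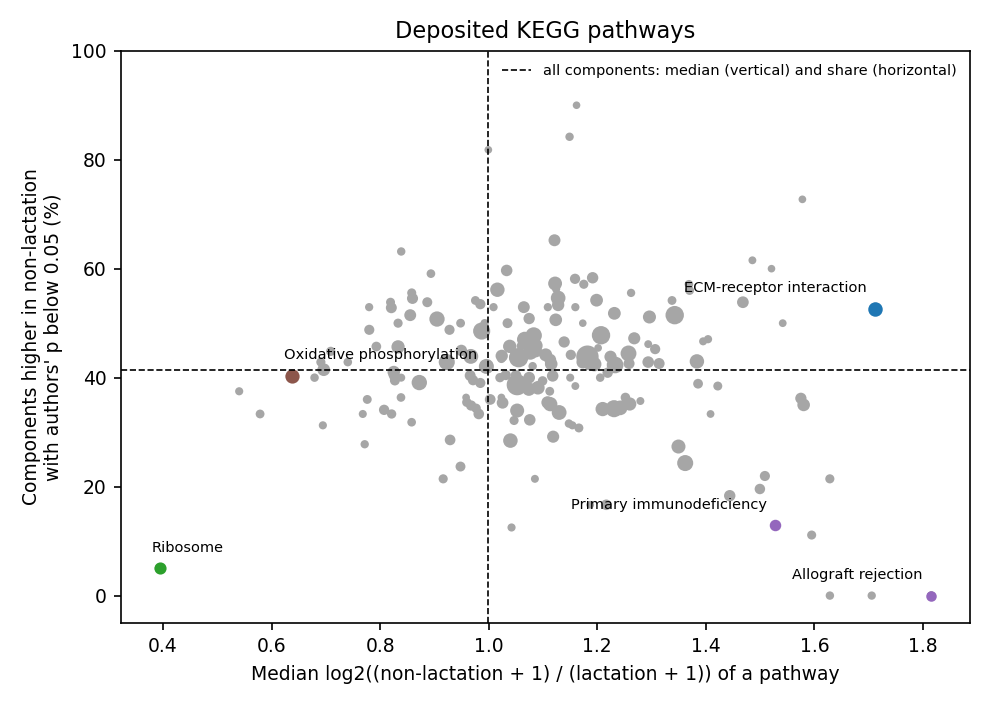
Each point is a KEGG pathway with at least 10 components, by the median log2 difference of its components (horizontal) and the share that was higher in non-lactation than in lactation with the authors' p below 0.05 (vertical, percent), with area growing with the number of components. Allograft rejection lies far right at 0%, ECM-receptor interaction far right at 52.6% and the ribosome far left at 5.0%.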

How the data were processed

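The authors deposited mean RPKM per transcript and stage, per the file headers, with no value and no depth per sample, so the precision that depth gives is unknown. The deposited table also gives a p-value and FDR per pair of stages, without naming the test. Reads were single-end, 36 bases, per the labels' protocols. FastQC is the one tool in the submitters' processing notes, and no assembler, aligner or counting method is named in the labels or headers. The authors' count of members per KEGG pathway came from a separate deposited table.

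Samples were grouped by source name. The design foresaw the authors' FDR below 0.05 and no test of expression here where files hold stage means, and this was used. Log2 differences (pseudocount 1) were recomputed because deposited log2 columns held errors. Members and 27 lists (424 symbols) were chosen with earlier results of these data known. Descriptions were matched to 196 symbols (187 in the RefSeq goat table of assembly ARS1.2) and 44 families by wording, and each gene was represented by its transcript of highest mean. Near-identical family members cannot be told apart. Named were all members of the milk, fat globule, uptake, synthesis, triacylglycerol and lactose lists, up to 4 of each other list by p-value, transcripts past the FDR, the 15 largest and smallest log2 differences (p below 0.05, at least 10 RPKM) and the 10 most abundant per stage. Other genes given were named after their values were seen, and some that the rule allows are left out. Alternatives covered thresholds, filters, pseudocount, scaling and adjustment. The Benjamini-Hochberg step was tested on simulated data. Python 3.11.15, numpy 2.4.6, pandas 2.3.3, statsmodels 0.14.6 and matplotlib 3.10.9 were used.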

Additional observations from a re-analysis of the deposited data

How the results depend on the processing

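No paired analysis was possible because no value per sample is in the tables used, so the replicate block and leaving out each replicate were not run, and depth per sample was not analysed. The 1 transcript past the authors' FDR of 0.05 stayed in the count under the low-value filter, the 2-fold minimum, 1 transcript per component and the 3 references of direction, none of which recomputes that FDR. At an FDR of 0.01 the counts were 0 in either direction and 0 higher. Benjamini-Hochberg adjustment over the deposited table alone gave 60, of which 59 were higher and 1 lower in non-lactation. That table is a selection of transcripts, so the adjustment need not hold the FDR and the 60 are not calls. For the unadjusted p-value, a threshold of 0.01 gave 1074 (1072 higher, 2 lower). At least 2-fold on the RPKM plus 1 scale gave 2025 (2009 higher, 16 lower). One transcript per component left 14 lower. Centring on the table median gave 2406 higher and 1405 lower, centring on ribosomal proteins 174 lower, and rescaling without LALBA and GLYCAM1 449 lower. The median log2 difference of all transcripts was 1.31 with a pseudocount of 0.1, 0.97 with at least 1 RPKM, 1.00 with 1 transcript per component, 0.28 after rescaling and 0 after centring. With 1 transcript per component the milk share was 23.8% in non-lactation and 53.2% in lactation. Of 196 genes, 50 turned negative when centred on the table median and 34 after rescaling, none with the pseudocount of 0.1, and 1 (CD36) turned positive when transcripts were summed. The fatty acid uptake and oxidative phosphorylation list medians turned negative under both references, and the lactose list did so under centring. The triacylglycerol list also turned negative under both, but its median is that of 1 gene, DGAT1. Its family descriptions, which the median leaves out, had log2 differences of 1.76 (phosphatidate phosphatase), 1.02 (glycerol-3-phosphate acyltransferase 1/2) and −0.44 (1-acylglycerol-3-phosphate acyltransferase). The cause of these shifts was not tested beyond the change of reference itself.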

Other observations

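Further pathways, chosen after their values were seen, are given here as values. TGF-beta signalling, which controls matrix production and epithelial arrest, had 45 of 69 components (65.2%) higher in non-lactation with p below 0.05 in the authors' deposited table, and a median log2 difference of 1.12. Notch signalling, a regulator of cell fate, had 35 of 60 (58.3%) and a median of 1.19. Ether lipid metabolism had 16 of 19 (84.2%) and a median of 1.15, while glycerolipid metabolism had 12 of 30 (40.0%) and a median of 1.02. Lysosome members, which break down proteins and lipids, had 33 of 116 (28.4%) and a median of 1.04, and antigen processing and presentation 8 of 48 (16.7%) and 1.22. The share over all components was 41.5%.

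Ferritin heavy chain, which stores iron, was among the 10 most abundant transcripts of non-lactation glands, with 2133 RPKM in non-lactation and 836 RPKM in lactation (p = 0.260 in the authors' deposited table). Cytochrome c oxidase subunit I, encoded in mitochondria, had 5451 RPKM in non-lactation and 3344 RPKM in lactation (p = 0.0156 in the authors' deposited table), a log2 difference of 0.70 that lies below the table median.

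Of 187 transcripts listed at 0 in lactation and above 0 in non-lactation, 25 had a p-value of 0.423 in the authors' deposited table, alike within 1e-05. It matches, within that tolerance, the two-sided p of a t value of 1 with 2 degrees of freedom.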
